A study of Mus musculus with 12 samples.

Results

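The 10 imprinted genes H19, Meg3, Rian, Mirg, Dlk1, Peg3, Zim1, Grb10, Mest and Plagl1 were followed in C2C12 mouse myoblasts with and without silencing of Bach1. They were chosen by gene symbol: all 27 probes of the array that carry the symbol of 1 of these 10 genes were taken, out of 56605 probes for 27306 genes. Each of the 12 arrays held RNA from C2C12, a myoblast cell line derived from C3H mouse muscle, transfected with a control siRNA (siControl) or with an siRNA against Bach1 (siBach1). RNA was taken at day 0, before differentiation was induced, or at day 2 after the medium was changed to 2% horse serum, which was done 24 hours after transfection. There were 3 replicates of each of the 4 groups, and all groups share the cell line and a transfection. The labels do not say whether replicates were separate cultures, so the p-values measure only the spread between these samples, and 1 siRNA sequence in 1 cell line stands for the loss of Bach1.

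An imprinted gene is transcribed mainly from the copy inherited from the mother or mainly from the copy inherited from the father, depending on DNA methylation laid down in the germ line. Many such genes lie in clusters that share a methylated control region, and many act on fetal growth. H19 is a maternally expressed long noncoding RNA whose neighbour Igf2 encodes a paternally expressed growth factor, and both are known to rise when myoblasts differentiate. Meg3, Rian and Mirg are maternally expressed noncoding RNAs of the cluster from Dlk1 to Dio3, which hosts many microRNAs and small nucleolar RNAs. Dlk1 encodes a Notch-like membrane protein expressed from the paternal copy. Peg3 and Plagl1 are paternally expressed genes for zinc finger proteins, and Zim1 is a maternally expressed zinc finger gene next to Peg3. Mest encodes a paternally expressed protein of the hydrolase fold, and Grb10 encodes an adaptor that dampens insulin receptor signalling. Bach1, the silenced gene, encodes a haem-binding repressor that binds Maf recognition elements and keeps Hmox1, the gene of haem oxygenase 1, low. The array measures the summed transcript of both parental copies and does not tell them apart.

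H19 is also the host of a microRNA, which is shown here because it is the sequence of this RNA that is processed into a regulator of other transcripts. The array did not measure it. In RefSeq (GRCm38.p6) both mature forms lie inside H19 on the minus strand of chromosome 7, miR-675-5p at chr7:142577112-142577133 and miR-675-3p at chr7:142577078-142577099, and capitals mark the seed, bases 2 to 8 from the 5′ end.
mmu-miR-675-5p: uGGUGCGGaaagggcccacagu
mmu-miR-675-3p: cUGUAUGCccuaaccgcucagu
The seeds of the 2 forms differ. In the same annotation Meg3 holds 1 microRNA hairpin, Rian 3, Mirg 10 and Mest 1, and the stretch from the start of Meg3 to the end of Mirg holds 57.

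For 9 of the 10 genes RefSeq gave 13 start-site windows, each with 250 bases before and 50 bases after the annotated start. The windows of Zim1, which among these genes differed most between the siRNAs at day 0 on a probe measured on every array, and of Plagl1, whose probes ran in opposite directions, are printed with their CpG dinucleotides, the sites at which DNA methylation is laid down. Zim1 lies on the minus strand with its window at chr7:6696383-6696682, and Plagl1 on the plus strand with its window at chr10:13090582-13090881 (GRCm38.p6). Both run 5′ to 3′ on the strand of the gene, and capitals mark CpG.
Zim1: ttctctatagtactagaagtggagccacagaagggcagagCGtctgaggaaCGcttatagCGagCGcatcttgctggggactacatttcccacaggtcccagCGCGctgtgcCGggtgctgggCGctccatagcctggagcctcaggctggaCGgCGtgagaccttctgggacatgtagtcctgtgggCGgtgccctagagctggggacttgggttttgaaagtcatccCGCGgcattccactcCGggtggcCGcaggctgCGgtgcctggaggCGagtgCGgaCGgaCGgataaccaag
Plagl1: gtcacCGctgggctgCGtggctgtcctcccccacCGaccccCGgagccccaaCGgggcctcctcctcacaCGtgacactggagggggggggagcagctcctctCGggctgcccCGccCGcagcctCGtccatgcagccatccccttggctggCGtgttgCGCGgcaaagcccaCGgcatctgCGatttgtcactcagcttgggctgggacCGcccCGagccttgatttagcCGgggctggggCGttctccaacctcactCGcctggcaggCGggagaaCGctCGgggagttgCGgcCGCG
The Zim1 window holds 20 CpG and the Plagl1 window 26, where the median over 32851 such windows was 7. The window of Peg3 holds 13 CpG, those of Mest 8, 17 and 17, those of Grb10 45 and 9, those of Meg3 13 and 1, that of Mirg 10, that of Dlk1 9 and that of Rian 0. On both strands of the 13 windows there was no match to the core of the Maf recognition element (found in 0.155% of all windows), to the AP-1 site it contains (TGAGTCA, 5.20%) or to the antioxidant response element core (TGACNNNGC, 12.4%). The muscle E-box CAGCTG, found in 16.3% of all windows, occurred in 1 of the 3 windows of Mest. These matches describe the letters in these windows only.

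Levels are given as log2 of the scanner's background-subtracted signal minus the 75th percentile of the same array, so that 0 is a bright probe and the lowest signal that counted as well above background lay between -5.17 and -3.86. A level is compared only with the same probe on other arrays. By the scanner's own rule 47.6% to 58.9% of probes exceeded background clearly on a given array, and no spot was saturated. Bach1 itself fell from 1.69 ± 0.12 to -0.09 ± 0.23 at day 0 and from 2.56 ± 0.01 to 0.59 ± 0.05 at day 2 in siBach1 cells (SD, n = 3), while Hmox1 rose from 3.51 ± 0.23 to 6.81 ± 0.19 and from 2.97 ± 0.18 to 6.10 ± 0.09. Of 10 muscle markers 9 were on the array and 8 were well above background on all 12 arrays. The summed linear signal of the muscle markers was 90.0 to 110.3 at day 0, and at day 2 it was 1515 to 1562 in siControl and 934 to 1099 in siBach1 cells. Of the markers of other cell types, Adipoq, Cdh5, Kdr, Epcam, Acan and Rbfox3 were well above background on no array, whereas the haematopoietic markers Ptprc, Cd68 and Itgam, the neuronal markers Snap25 and Tubb3, and Col2a1 and Sp7 of cartilage and bone exceeded it on each of the 12. In between, the adipocyte markers Plin1, Fabp4 and Cidec exceeded it on 10, 6 and 2 arrays, and the endothelial marker Pecam1 on 11. The epithelial markers Cdh1 and Krt18 did so on 6 and 1, with Cdh1 on all 3 arrays of both day 2 groups. The summed neuronal signal at day 0 was 20.7 to 22.2 in siControl and 11.6 to 14.2 in siBach1 cells. With silencing at day 0 Tubb3 differed by -1.17 ± 0.21 (SE; adjusted p = 0.0036) and Snap25 by -0.08 ± 0.22 (adjusted p = 0.84). The bone marker Bglap, well above background on 8 arrays, entered the test only through siBach1 day 2, its highest group. Its day 2 mean was 1.90 ± 0.33 higher in siBach1 than in siControl cells, which is a description with no test. The part of these markers in the results was not tested. Replicates 1 and 2 were on 1 slide and replicate 3 on another, and each group had its own column of positions on both slides, so position and group cannot be told apart.

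The 10 genes fell apart first by whether they were detected. Meg3, Rian, Mirg and Dlk1 lay near the background of the array, and none of their probes was well above it on all 3 arrays of a group. Of the 132 values that their 11 probes gave, 10 were well above background, or 7.58%, against 53.4% of the values of all probes. Grb10 was well above background in 1 of 36 values from its 3 probes. H19 had 1 probe, well above background on all 12 arrays, and Peg3, Zim1, Mest and Plagl1 each had at least 1 such probe. A test was run only for probes that exceeded background on every array of 1 group or more, which left 8 of the 27 probes, from 5 of the 10 genes. The Zim1 probe A_55_P2917431 entered only through the day 2 groups and the Plagl1 probe A_55_P1961968 only through siControl cells at day 0, and a probe that enters only through the group where it is high had to be lower elsewhere. Counts over the tested probes therefore describe those 8 probes and not the 10 genes.

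**Figure D1:**
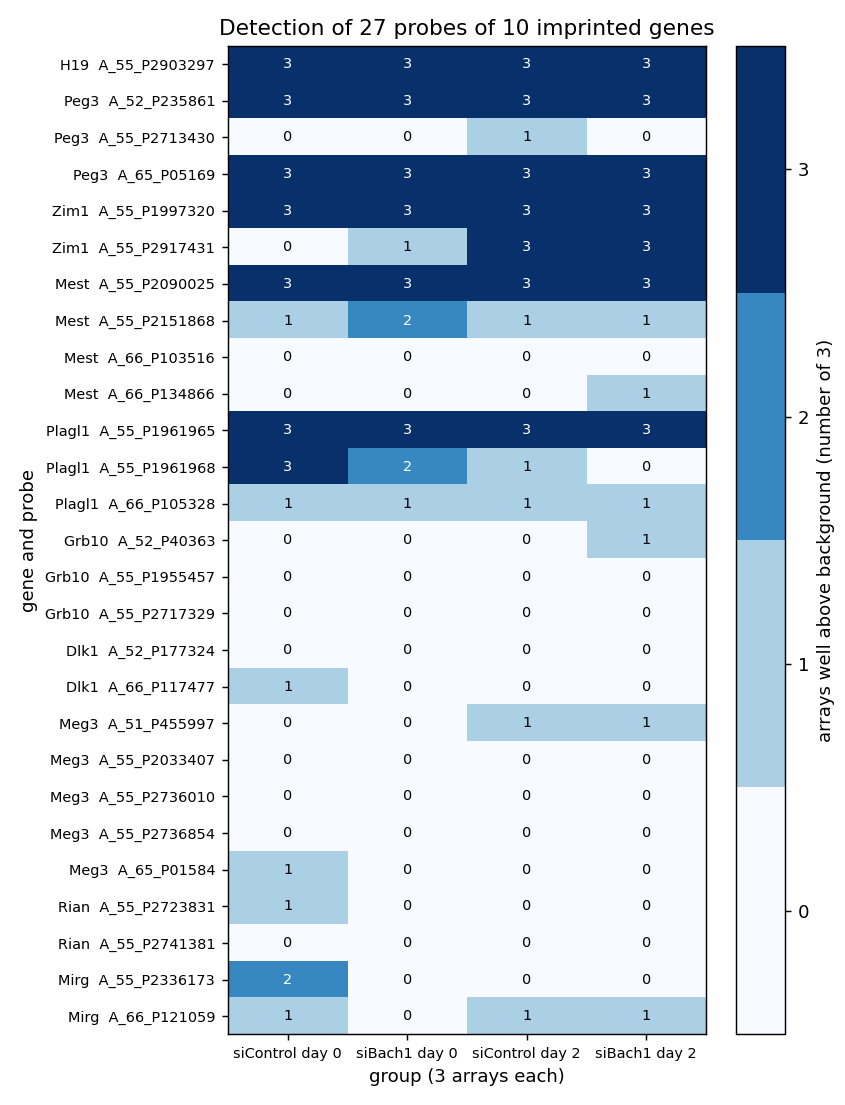
Number of arrays, of 3 in each group, on which each of the 27 probes was well above background. Rows are probes grouped by gene and columns are the 4 groups. H19, Peg3, Zim1, Mest and Plagl1 have at least 1 row filled with 3, and no row of Grb10, Dlk1, Meg3, Rian or Mirg reaches 3 in any group.

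Within the cluster from Dlk1 to Dio3, the brightest probe of Meg3, A_51_P455997, gave -5.45, -5.70 and -3.95 in siControl cells at day 0 and -5.22, -5.35 and -5.96 in siBach1 cells. At day 2 it gave -4.71, -5.28 and -6.38 in siControl and -6.44, -3.25 and -4.41 in siBach1 cells. The lowest and the highest value of the probe both came from siBach1 day 2, and the groups overlapped. The Mirg probe A_55_P2336173 was the only one of the 11 that was well above background on more than 1 array of a group, at 2 of 3 arrays of siControl day 0. Its levels there were -5.16, -4.36 and -3.63, and over the other 9 arrays they ran from -6.86 to -5.10. At day 0 its siBach1 levels were all at background and lay below the siControl levels. The probe was not tested, since no group had all 3 arrays above background. Dlk1 gave between -6.88 and -4.89 on both of its probes, with 1 of 24 values well above background, and Rian between -7.34 and -3.54, also with 1 of 24. Around them, the brightest probes of Rtl1, the paternally expressed gene derived from a retrotransposon, and of Dio3, the deiodinase that inactivates thyroid hormone, were well above background on 2 and 1 of 12 arrays. Dio3os, the antisense RNA of Dio3, was measured on all 12 arrays, with day 0 means of -3.21 ± 0.14 for siControl and -3.24 ± 0.14 for siBach1, and day 2 means of -3.20 ± 0.23 and -2.93 ± 0.29 (SD, n = 3). It passed no test, with adjusted p from 0.13 to 0.97, and nor did Wdr25, well above background on 8 arrays. Changes of Meg3, Rian, Mirg and Dlk1 were not detectable with this array.

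Grb10, which dampens insulin and growth factor signalling, was likewise near background in every group. Its levels ran from -7.09 to -3.37 over the 3 probes, and the single value well above background, -3.37, came from replicate 2 of siBach1 day 2. The genes on either side of Grb10 did give signal. Ddc, which encodes aromatic L-amino acid decarboxylase, had levels of -1.99, -1.69 and -2.38 in siControl cells and -0.87, -0.64 and -0.82 in siBach1 cells at day 0. The siBach1 arrays lay above all siControl arrays, by 1.24 ± 0.15 (SE) on the log2 scale (limma, adjusted p = 0.00048). At day 2 Ddc had risen to 2.01 ± 0.10 in siControl and 1.91 ± 0.10 in siBach1 cells (SD, n = 3), with groups that overlapped. The second Ddc probe, A_52_P63905, was well above background on 7 arrays and higher at day 2, by 2.90 in siControl and 2.21 in siBach1 cells. Its day 0 signal was therefore mostly at background. It gave 1.07 for silencing at day 0, a description with no test, and 0.38 at day 2 (adjusted p = 0.66). Cobl, an actin nucleator, rose by 3.18 ± 0.14 in siControl and by 2.69 ± 0.14 in siBach1 cells with differentiation (adjusted p = 5.9e-08 and 1.7e-07). A second Cobl probe, A_55_P1995243, rose by 0.47 in siControl cells (adjusted p = 0.0058) and gave 0.12 in siBach1 cells (adjusted p = 0.43), so the probes of Cobl disagree in size. At day 2 the first probe was lower in siBach1 cells by -0.53 ± 0.14 (adjusted p = 0.031), a call lost under 7 of 20 alternatives, and the second gave 0.10 (adjusted p = 0.64). At day 0 the second probe was higher in siBach1 cells by 0.46 (adjusted p = 0.023), and the first gave -0.04.

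H19 rose with differentiation under both siRNAs, and at day 0 it was higher in siBach1 than in siControl cells. In siControl cells its levels were 7.44, 7.38 and 7.50 at day 0 and 9.47, 9.34 and 9.43 at day 2. In siBach1 cells they were 7.93, 7.79 and 8.0 at day 0 and 9.30, 9.31 and 9.22 at day 2. All 6 arrays of day 2 lay above all 6 of day 0, and at day 0 the siBach1 arrays lay above the siControl arrays. With differentiation H19 rose by 1.97 ± 0.08 (SE) on the log2 scale in siControl cells, or 3.92-fold (adjusted p = 4.5e-08), and by 1.37 ± 0.08 in siBach1 cells, or 2.58-fold (adjusted p = 4.3e-07). In bulk RNA more cells that express H19 and more H19 per cell cannot be told apart. The summed muscle markers given above were higher at day 2 in siControl than in siBach1 cells, and their part in the H19 values was not tested.

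Silencing of Bach1 raised H19 at day 0 by 0.46 ± 0.08 (SE), or 1.38-fold (adjusted p = 0.0033), and by 0.29 after quantile normalization (adjusted p = 0.019). At day 2 the siBach1 level was lower by -0.14 ± 0.08, which did not pass the test (adjusted p = 0.31), although the groups did not overlap. The day 2 value was 0.07 after quantile normalization, so its direction depends on the scaling. The effect at day 2 minus that at day 0 was -0.60 ± 0.11 (adjusted p = 0.02). That difference did not pass after quantile normalization, where it was -0.22 (adjusted p = 0.27), nor without the filter on dim probes (adjusted p = 0.14). It also missed the threshold without replicate 1 of siBach1 day 2, of siControl day 0 or of siControl day 2 (adjusted p = 0.052 in each case), or without replicate 2 of siControl day 0 (adjusted p = 0.055).

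The genes whose pattern over the 12 arrays was most like that of H19 were Klhl31, Ncam1, Ptges3l, Rnf11 and Capn3, with Pearson correlations of 0.998 to 0.995 across arrays that fall into day 0 and day 2. Ncam1 encodes a neural cell adhesion molecule that myoblasts also carry, and Capn3 the calpain of skeletal muscle. All 5 had a positive silencing difference at day 0, from 0.30 to 0.81, and a negative one at day 2, from -0.41 to -0.0043. The likeness is a description, since the separation of the 2 days alone yields high correlations. The genes were also picked by their correlation with H19 over these same arrays, so their silencing signs are no separate evidence on H19. For Meg3 no such genes were sought, because its probe was at background.

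**Figure D2:**
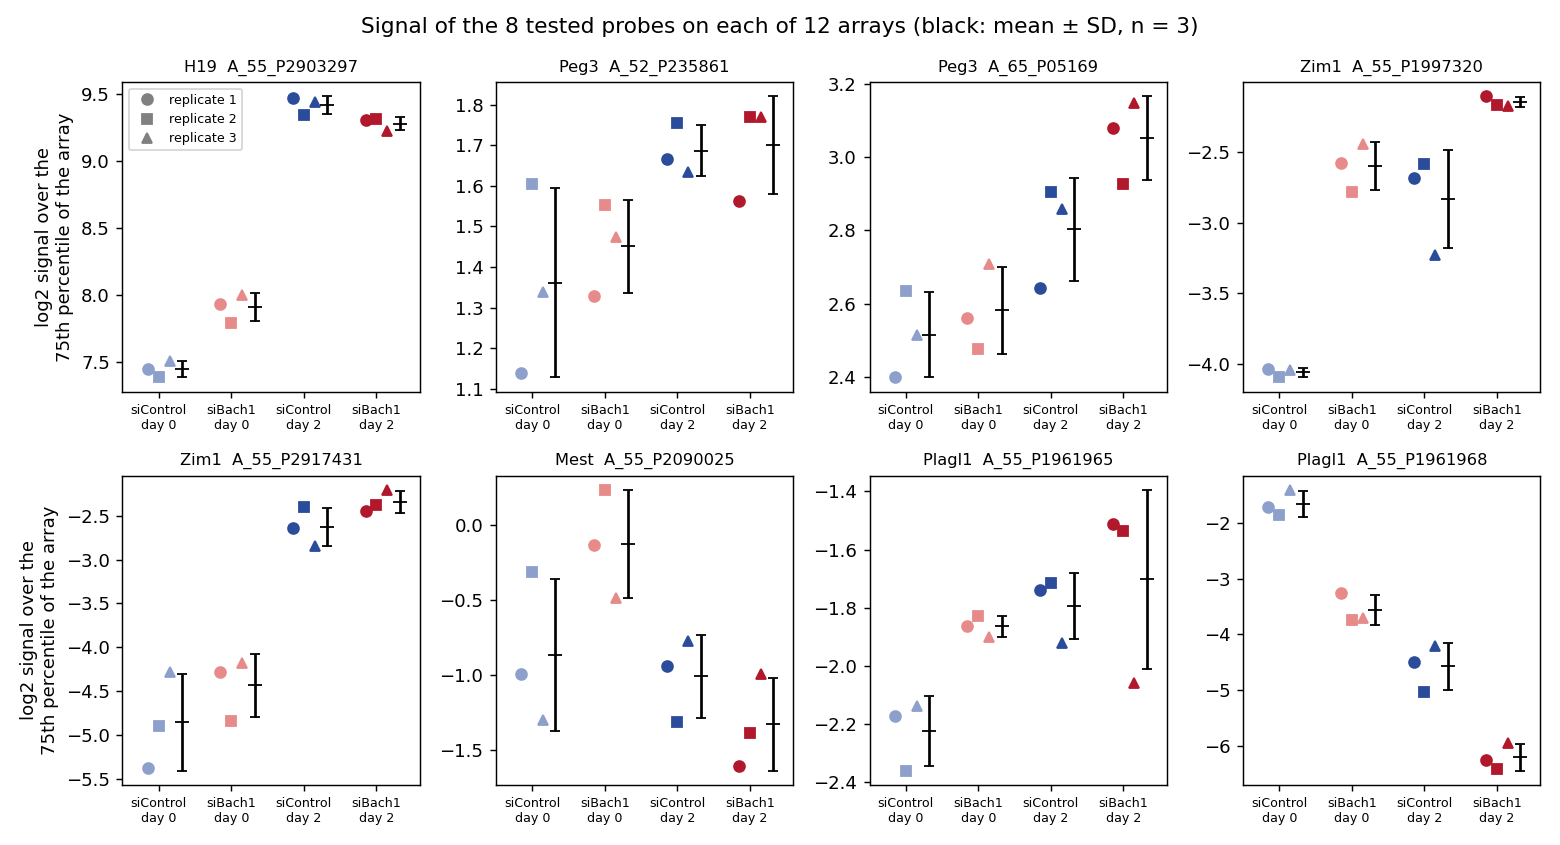
Level of each of the 8 tested probes on each of the 12 arrays, as log2 signal over the 75th percentile of the array, with 1 panel per probe and its own vertical scale. Marker shapes are replicates 1 to 3, colours are groups and black bars are the mean ± SD of 3 arrays. H19 separates by day, the Zim1 probe A_55_P1997320 is lowest in siControl day 0, and the Plagl1 probes run in opposite directions.

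Of the neighbours of H19, Igf2, the growth factor gene that shares its enhancers, rose most in siControl cells. Its levels were -3.82, -4.23 and -4.43 in siControl cells and -2.32, -3.79 and -4.77 in siBach1 cells at day 0. At day 2 they were 2.56, 2.63 and 1.96 in siControl and 1.04, 1.11 and -0.05 in siBach1 cells. The day 2 groups did not overlap, and at day 0 they did, with 2 of 3 arrays of each day 0 group well above background. Because this probe entered the test only through its day 2 groups, its rise is given as a description. The rise was 6.54 ± 0.54 (SE) in siControl and 4.33 ± 0.54 in siBach1 cells, the latter being 2.82 after normexp correction. The silencing difference at day 2 was -1.68 ± 0.54 and did not pass (adjusted p = 0.071), but did with the replicate number as a block (adjusted p = 0.013), with the slide as a block (0.013) and after normexp background correction (-1.56, adjusted p = 0.0019), and without replicate 1 or replicate 3 of siBach1 day 0 (adjusted p = 0.021 and 0.031). A second Igf2 probe, A_55_P2118173, well above background on 7 arrays, gave -2.03 at day 2 (adjusted p = 0.013). It was also higher at day 2, by 4.72 in siControl and 3.99 in siBach1 cells. With 7 arrays above background, its day 0 signal was therefore mostly at background. At day 0 it gave -1.30, a description with no test from which no sign is read. The first probe gave 0.53 ± 0.54 there (adjusted p = 0.55). For the difference between the days the first probe gave -2.21 (adjusted p = 0.12). The second gave -0.73, which rests on the same day 0 signal and is a description. Igf2 therefore passed or missed the test by probe and by setting, with the same sign at day 2 in each.

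Cdkn1c, a maternally expressed inhibitor of cyclin-dependent kinases farther along the same chromosome, differed between the siRNAs at day 2. Its levels were 0.06, -0.11 and 0.27 in siControl and -2.04, -2.22 and -1.88 in siBach1 cells, with no overlap. It was lower in siBach1 cells by -2.12 ± 0.25 (SE; adjusted p = 0.00078), and at day 0 the difference was -0.15 ± 0.25 (adjusted p = 0.73). Day 2 minus day 0, this effect came to -1.96 ± 0.35 (adjusted p = 0.016, and 0.083 without the filter on dim probes). With differentiation Cdkn1c rose by 2.47 ± 0.25 in siControl cells (adjusted p = 1.3e-05), and in siBach1 cells the value was 0.51 ± 0.25 (adjusted p = 0.11, and 0.033 at a value of 0.72 without replicate 2 of siBach1 day 0). Ins2, which encodes insulin 2 and lies beside Igf2, rose by 4.29 ± 0.40 and 4.44 ± 0.40 in siControl and siBach1 cells, or by 2.65 and 2.50 after normexp correction. Its probe also entered only through the day 2 groups, with 2 of 3 arrays of each day 0 group well above background. The rises of Ins2 are therefore a description. Tspan32, a tetraspanin gene of the same region, rose by 4.03 ± 0.21 and 3.97 ± 0.21. At day 0 the brightest probe of Tnfrsf23, a decoy death receptor gene, was lower in siBach1 cells by -0.86 ± 0.12 (adjusted p = 0.0012), but its other probes gave -0.18 and -0.14 (adjusted p = 0.38 and 0.69). Osbpl5, a gene for a lipid-binding protein, gave -0.29 ± 0.08 at day 0 (adjusted p = 0.037), a call lost under 10 of 20 alternatives, while its other probes gave 0.03 and 0.30 (adjusted p = 0.94 and 0.30). Smaller changes with differentiation passed in siControl and siBach1 cells for Cd81, a tetraspanin gene, at 0.60 ± 0.08 and 0.52 ± 0.08, for Dhcr7, of cholesterol synthesis, at 0.37 ± 0.11 and 0.44 ± 0.11, the former lost under 4 of 20 alternatives, and for Nap1l4, a histone chaperone gene, at -0.39 ± 0.08 in both. Quantile normalization gave 0.92 for Cd81 and -0.25 for Nap1l4 in siBach1 cells. The second Nap1l4 probe gave -0.33 and -0.44 in siControl and siBach1 cells (adjusted p = 0.14 and 0.057). Osbpl5 rose by 0.78 and 0.96 on its brightest probe and by 0.79 and 1.16 on A_55_P2739706, while A_66_P136559 gave 0.46 and 0.18 (adjusted p = 0.058 and 0.43). The brightest Tnfrsf23 probe rose by 0.98 in siBach1 cells (adjusted p = 6.6e-05) and gave 0.29 in siControl cells (adjusted p = 0.069).

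Peg3, a zinc finger gene with roles in growth and maternal behaviour, changed little. On its brightest probe, A_65_P05169, the levels at day 0 were 2.40, 2.63 and 2.51 in siControl and 2.56, 2.48 and 2.71 in siBach1 cells. At day 2 they were 2.64, 2.91 and 2.86 in siControl and 3.08, 2.93 and 3.15 in siBach1 cells. The siRNA groups overlapped at day 0 and lay apart at day 2. The rise with differentiation was 0.29 ± 0.11 (SE) in siControl cells (adjusted p = 0.044) and 0.47 ± 0.11 in siBach1 cells (adjusted p = 0.0035). The second probe, A_52_P235861, gave 0.32 ± 0.12 and 0.25 ± 0.12 (adjusted p = 0.045 and 0.11), and the last value passed with the replicate number as a block (adjusted p = 0.027) and after quantile normalization (0.37, adjusted p = 0.02). The siControl rises of both probes missed the threshold under normexp, without the filter, under the methods' t-test, and without 1 array for 6 and 9 of the 12 arrays, with adjusted p up to 0.15 and 0.17. The silencing differences of A_65_P05169 were 0.07 ± 0.11 at day 0 and 0.25 ± 0.11 at day 2 (adjusted p = 0.73 and 0.17), and the day 2 value passed after quantile normalization (0.33, adjusted p = 0.049). Those of A_52_P235861 were 0.09 ± 0.12 and 0.01 ± 0.12 (adjusted p = 0.67 and 0.96). The remaining Peg3 probe, A_55_P2713430, was well above background on 1 array and was not tested.

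Zim1, the zinc finger gene beside Peg3, had the tested member probe that rose most when Bach1 was silenced. On A_55_P1997320, well above background on all 12 arrays, the levels at day 0 were -4.04, -4.10 and -4.05 in siControl and -2.58, -2.78 and -2.44 in siBach1 cells. At day 2 they were -2.68, -2.58 and -3.23 in siControl and -2.10, -2.16 and -2.17 in siBach1 cells. The siBach1 arrays lay above the siControl arrays on both days. The siControl levels at day 0 were close to the floor, since the lowest signal well above background in that group ran from -5.17 to -4.19. Zim1 was higher in siBach1 cells by 1.46 ± 0.15 (SE) at day 0, or 2.76-fold (adjusted p = 0.00018), and by 0.69 ± 0.15 at day 2, or 1.61-fold (adjusted p = 0.018). After normexp correction the day 0 difference was 0.74 (adjusted p = 0.00026), which is under 2-fold. The day 2 difference missed the threshold after normexp (0.32, adjusted p = 0.051), without the filter (adjusted p = 0.074), under the methods' t-test (adjusted p = 0.15) and without replicate 1 of siBach1 day 2 (adjusted p = 0.065).

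With differentiation this probe of Zim1 rose by 1.23 ± 0.15 (SE) in siControl cells (adjusted p = 6.8e-05) and by 0.45 ± 0.15 in siBach1 cells (adjusted p = 0.028), or by 0.68 and 0.26 after normexp correction (adjusted p = 7.1e-05 and 0.041). The siBach1 rise missed the threshold after quantile normalization (0.28, adjusted p = 0.12), without the filter (adjusted p = 0.08) and without any 1 of 5 of the 6 siBach1 arrays (adjusted p = 0.054 to 0.1), replicate 3 of day 0 being the exception. The effect at day 2 minus that at day 0 came to -0.78 ± 0.22 (adjusted p = 0.072), which passed with the slide as a block (adjusted p = 0.044) and without replicate 3 of siControl day 2 (-0.98, adjusted p = 0.017). The second probe, A_55_P2917431, was well above background on no array of siControl day 0, on 1 of siBach1 day 0 and on all 6 arrays of day 2. At day 0 its levels were -5.38, -4.90 and -4.28 in siControl and -4.28, -4.84 and -4.18 in siBach1 cells, so this probe gives no measured difference between the siRNAs there. At day 2 the siBach1 difference was 0.29 ± 0.26 (adjusted p = 0.54), with groups that overlapped. Because the probe entered through its day 2 groups, its rise is given as a description: day 2 was at least 4.04-fold above day 0 in siControl cells, taking the lowest signal well above background, or the probe's own where higher, as the bound. After normexp correction, which adds an offset to dim signals, the fitted log2 rise was 0.92 in siControl and 0.72 in siBach1 cells.

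Usp29, a ubiquitin protease gene whose start is shared with Peg3, moved the other way at day 0. Its levels were -0.21, -0.05 and -0.06 in siControl and -0.95, -1.20 and -0.93 in siBach1 cells, with no overlap, and the difference was -0.92 ± 0.13 (SE; adjusted p = 0.00087). Another Usp29 probe, A_55_P2741286, was well above background on 4 arrays, so it can have entered the test through only 1 group. It gave -0.996 at day 0 and 1.13 at day 2, which is a description with no test.

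Mest, the hydrolase-fold gene, had 4 probes, of which A_55_P2090025 was tested. At day 0 its levels were -0.99, -0.31 and -1.30 in siControl and -0.13, 0.24 and -0.48 in siBach1 cells. At day 2 they were -0.94, -1.32 and -0.77 in siControl and -1.61, -1.39 and -0.995 in siBach1 cells. The siRNA groups overlapped on both days, and in siBach1 cells the 2 days did not. Mest fell with differentiation by 1.21 ± 0.28 (SE) in siBach1 cells, or 2.31-fold (adjusted p = 0.0037). In siControl cells the value was -0.14 ± 0.28 (adjusted p = 0.70), and the difference between these changes, -1.06 ± 0.39, did not pass (adjusted p = 0.15). The silencing difference was 0.74 ± 0.28 at day 0 (adjusted p = 0.099, and 0.034 at a value of 1.02 without replicate 2 of siControl day 0) and -0.32 ± 0.28 at day 2 (adjusted p = 0.51). The other 3 probes were well above background on 0, 1 and 5 of 12 arrays. Copg2, which overlaps Mest on the opposite strand, rose with differentiation by 0.79 ± 0.09 and 0.49 ± 0.09 in siControl and siBach1 cells (adjusted p = 2.4e-05 and 0.00062). At day 0 it was higher in siBach1 cells by 0.32 ± 0.09 on that probe (adjusted p = 0.028) and by 0.85 on its other probe, A_52_P362015 (adjusted p = 0.0027), which with differentiation gave 0.63 in siControl and 0.09 in siBach1 cells (adjusted p = 0.0034 and 0.62).

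The probes of Plagl1, a zinc finger transcription factor that acts on other imprinted genes, ran in opposite directions. On A_55_P1961968 the levels at day 0 were -1.71, -1.87 and -1.40 in siControl and -3.26, -3.75 and -3.71 in siBach1 cells. At day 2 they were -4.50, -5.03 and -4.20 in siControl and -6.27, -6.42 and -5.95 in siBach1 cells. No group overlapped another, and the number of arrays well above background went from 3 in siControl day 0 to 2 in siBach1 day 0, 1 in siControl day 2 and 0 in siBach1 day 2. Because the probe entered only through siControl day 0, its highest group, the differences that follow are a description with no test. The siBach1 mean at day 0, with 2 of 3 arrays well above background, was -1.91 ± 0.23 (SE) from the siControl mean, or -0.87 after normexp correction. At day 2 siBach1 was at background on every array, and the bound is at least 1.02-fold lower. Day 2 was -2.92 ± 0.23 from day 0 in siControl cells, with 1 of 3 day 2 arrays well above background, or -1.11 after normexp correction. In siBach1 cells day 2 was at least 2.06-fold lower than day 0, and the fitted value was -0.60 after normexp correction.

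On A_55_P1961965, which the deposited table assigns to the same transcript as A_55_P1961968 and which was well above background on all 12 arrays, Plagl1 gave -2.17, -2.36 and -2.14 in siControl and -1.86, -1.83 and -1.90 in siBach1 cells at day 0. At day 2 it gave -1.74, -1.72 and -1.92 in siControl and -1.51, -1.54 and -2.06 in siBach1 cells. At day 0 the siBach1 arrays lay above the siControl arrays, by 0.36 ± 0.14 (SE), which did not pass the test (adjusted p = 0.11, and 0.025 without replicate 3 of siBach1 day 2). At day 2 the difference was 0.09 ± 0.14 (adjusted p = 0.74). Its rise with differentiation in siControl cells was 0.43 ± 0.14 (adjusted p = 0.025). This rise missed the threshold after quantile normalization (0.29, adjusted p = 0.083), without the filter (0.076), and without replicate 2 of siControl day 0 (0.09) or replicate 1 or 2 of siControl day 2 (0.071 and 0.075). In siBach1 cells the change was 0.16 ± 0.14 (adjusted p = 0.36, and 0.017 at a value of 0.34 without replicate 3 of siBach1 day 2). The remaining probe, A_66_P105328, was well above background on 1 array of each group and was not tested. No direction can therefore be given for Plagl1 as a gene. Phactr2, an actin regulator gene beside it, rose by 0.56 ± 0.19 in siControl cells (adjusted p = 0.03), a call lost under 6 of 20 alternatives, and gave 0.14 ± 0.19 in siBach1 cells (adjusted p = 0.58).

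**Figure D3:**
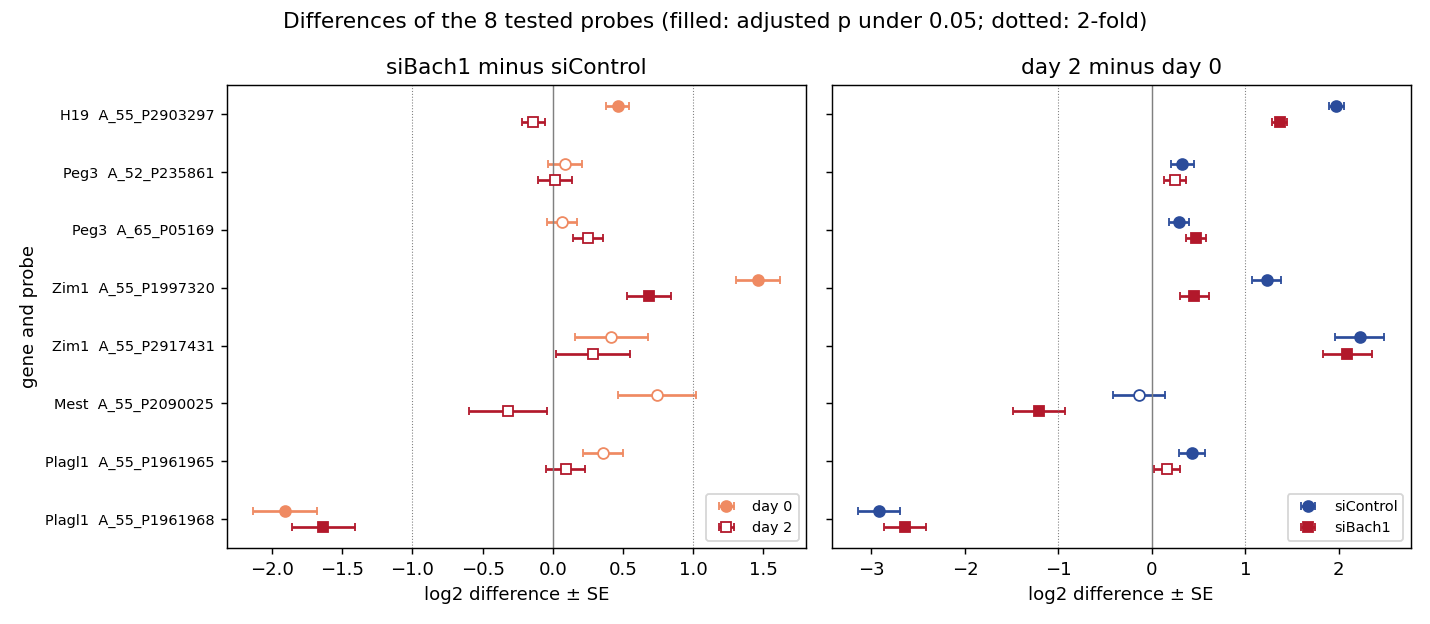
Log2 differences ± SE of the 8 tested probes, siBach1 minus siControl at day 0 and day 2 on the left and day 2 minus day 0 in siControl and siBach1 cells on the right. Filled markers have an adjusted p under 0.05 and dotted lines mark 2-fold. The A_55_P1997320 probe of Zim1 lies right of 2-fold at day 0 at 1.46, the A_55_P1961968 probe of Plagl1 lies left of it at -1.91, and the other 6 probes lie within 2-fold for both silencing effects.

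On each of the 12 arrays 6 of the 27 probes, from 5 genes, exceeded background, and over these the counts do not rest on the group through which a probe entered. In a limma fit of the 24802 such probes, silencing at day 0 moved 1 of the 6 at 2-fold or more with an adjusted p under 0.05, Zim1, where 2.27% of all 24802 did. At day 2 it moved 0, where 1.29% did, and the methods' t-test also gave 0 past both limits. With differentiation H19 and Zim1 rose at 2-fold or more in siControl cells, where 17.2% of all moved, and in siBach1 cells H19 rose and Mest fell, where 17.4% did. For the difference between the days it was 0, where 1.24% did. By adjusted p alone H19 and Zim1 passed for silencing at day 0, Zim1 at day 2 and H19 for the difference between the days. At an unadjusted p under 0.05 the numbers were 4, 2 and 3. The shares of all probes by adjusted p alone and by unadjusted p were not computed for this fit. These numbers are therefore a description and do not show whether the members stand out. In the fit of all 29664 tested probes the shares by adjusted p alone were 17.1%, 12% and 4.59% for these contrasts. The median difference of the 6 probes was 0.41 for silencing at day 0, where that of all was 0.10, and 0.05 at day 2, where that of all was -0.03. With differentiation it was 0.38 in siControl and 0.35 in siBach1 cells, where those of all were -0.04 and -0.12. Probes of 1 gene share their target, and 6 probes are too few to read such shares closely.

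Counted over all 8 tested probes, which include the Zim1 and Plagl1 probes that entered through their high groups, the numbers are a description only. Past both limits were 2 at day 0 and 1 at day 2 for silencing, 4 and 4 for differentiation in siControl and siBach1 cells and 0 for the difference between the days, where the shares of all 29664 tested probes were 2.79%, 2.17%, 20%, 20.5% and 1.44%. The 1 probe at day 2 was the Plagl1 probe whose bound is 1.02-fold. By adjusted p alone the numbers were 3, 2, 7, 6 and 1, where the shares of all were 17.1%, 12%, 53.4%, 56.1% and 4.59%.

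A list of 74 other imprinted genes was set beside these genes. On the array were 69 of them, and for 45 the brightest probe was tested. With differentiation in siControl cells 10 of the 45 rose and 1 fell at 2-fold or more, or 24.4%, where 21.5% of 15630 genes did so. The largest rises were those of Igf2, of Dcn, the gene of the matrix proteoglycan decorin, by 5.23 ± 0.23 (SE), and of Ins2, and the fall was that of Peg10, a gene derived from a retrotransposon, by 1.26 ± 0.23 (-0.68 after normexp correction). In siBach1 cells 9 rose and 2 fell, also 24.4%, against 21.8%, with Dcn at 5.46 ± 0.23 and with Peg12 and Peg10 both at -1.17 (-0.59 and -0.69 after normexp correction). In both counts the probes of Igf2 and Ins2 had entered only through their day 2 groups, so their rises are a description. The median of the list was 0.37 in siControl and 0.39 in siBach1 cells, where that of all genes was 0.01 and -0.06.

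Silencing moved fewer of the listed genes. At day 0, 2 of 45 rose and 1 fell at 2-fold or more, or 6.67%, against 3.13% of all genes. These were Ddc, Zfp787, a zinc finger gene, at 1.12 ± 0.14, and Impact, a regulator of translation under amino acid starvation, whose levels of 2.68, 2.60 and 2.82 in siControl cells were 1.49, 1.30 and 1.55 in siBach1 cells, a fall by 1.25 ± 0.14 (adjusted p = 0.00025). At day 2 Zfp787 was higher by 1.27 ± 0.14 and Cdkn1c was lower, 4.44% of the list against 2.55% of all genes. A second Zfp787 probe, A_55_P2728774, gave 1.17 and 1.22, and the remaining one, A_55_P2014520, gave 0.37 and 0.00 (adjusted p = 0.13 and 1.0). The difference between the days passed at 2-fold for Cdkn1c and Ddc, again 4.44%, against 1.75% of all genes.

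**Figure D4:**
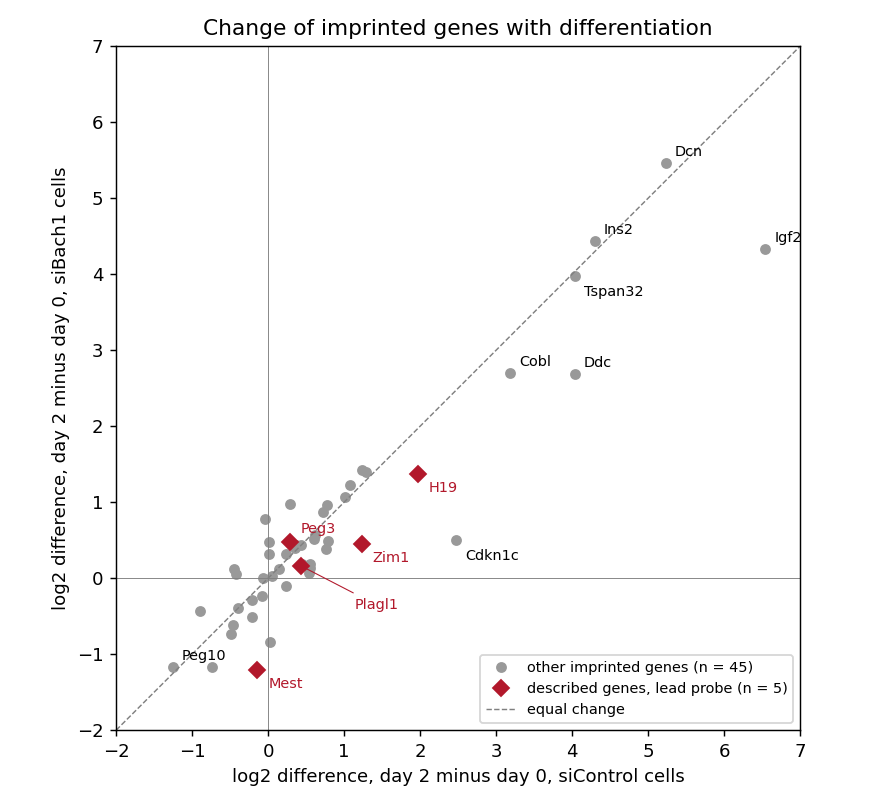
Log2 difference of day 2 minus day 0 in siControl cells (horizontal) and siBach1 cells (vertical) for the brightest probe of the 5 tested genes described here (red diamonds) and of 45 other imprinted genes (grey points). The axes share no arrays and the dashed line marks equal change. Igf2, Cdkn1c and Ddc lie below the line, and Dcn, Ins2 and Tspan32 lie close to it.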

How the data were processed

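RNA of 12 C2C12 samples was labelled with Cy3 and hybridized to 1 Agilent array each. The authors deposited the scanner's processed signal of each array, an intensity after background subtraction, and a table of log2 values that the authors normalized to the 75th percentile of the array and the median of the probe. Values computed here from the scanner signals differed from the deposited log2 values by at most 0.00449, and the column medians of that table ran from -0.15 to 0.33. The version of Feature Extraction is 10.7.3.1 per the file headers and 9.1 in the submitters' processing notes. No aligner or genome build was needed, and sequences came from RefSeq tables of GRCm38.p6.

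Control and outlier spots were removed (76 to 110 outliers per array of 62976 spots), repeated spots were averaged, and the 75th percentile was subtracted. Probes that the scanner marked as well above background on every array of 1 group or more, 29664 in all, were tested in a single limma fit of the 4 group means (limma 3.58.1, R 4.3.3, Python 3.11, pandas 2.3.3, numpy 2.4.6, matplotlib 3.10.9) with Benjamini-Hochberg adjustment over all of them. Probes were counted at an adjusted p under 0.05 together with a 2-fold or greater difference, or at the adjusted p alone. On simulated data for silencing at day 2, in which 200 of 29644 probes were changed by 1.5 on the log2 scale, 84.5% were recovered with 2 false calls. The simulated noise was independent between arrays, without the correlation of same-numbered arrays given next, so these figures do not give the error rate on the real arrays. Replicate numbers come from the labels, and residuals of same-numbered arrays were correlated in each of 18 pairs, at 0.142 to 0.595, above the limit of 0.1 for pairing. Same-numbered arrays also share a slide row. With 3 arrays per group, precision is limited throughout.

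The 10 genes, the lists of other imprinted genes and of markers, and the rule for naming genes were chosen with earlier results of these data known. All probes of the 10 genes were named, and the brightest probe stood for each other gene. Of the listed imprinted genes, those listed in the same chromosome regions as the 10 genes were named. Per contrast, up to 3 with the largest rise and 3 with the largest fall were also named. Named second probes of these genes were chosen to show where probes disagree. Alternatives were quantile normalization, normexp with an offset of 50, the authors' log2 values, no filter on dim probes, a filter on all 12 arrays, the replicate or slide as a block, the methods' t-test with Benjamini-Hochberg adjustment, and each array left out in turn. For the named other imprinted genes these alternatives were added after the data had been seen.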

Additional observations from a re-analysis of the deposited data

Results flagged for a closer look

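The silencing effect on H19 differed between the days, by -0.60 ± 0.11 (SE; limma, adjusted p = 0.02), with siBach1 above siControl on all arrays at day 0 and below it on all arrays at day 2. The adjusted p of this difference ranged from 0.0092 to 0.27 over the alternatives, and it was lost in 4 of the 12 fits that left out 1 array. Under quantile normalization the day 2 difference had the opposite sign.

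The silencing effect on Cdkn1c differed between the days by -1.96 ± 0.35 (adjusted p = 0.016), with a difference at day 2 and overlapping groups at day 0. That on Ddc differed by -1.35 ± 0.22 (adjusted p = 0.012), with a difference at day 0 and overlapping groups at day 2. The second Ddc probe gave -0.69, but its day 0 signal was mostly at background, so it is no check on this. The differences of Cdkn1c and Ddc missed the threshold without the filter on dim probes (adjusted p = 0.083 and 0.074). The muscle markers, whose summed signal at day 2 was 1515 to 1562 in siControl and 934 to 1099 in siBach1 cells, differed between the siRNAs at day 2 as Cdkn1c did, and their part in these results was not tested.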

How the results depend on the processing

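For the 40 log2 differences of the 8 tested probes, 716 of 782 alternative values kept their direction and their side of the threshold, 45 fell short of it, 8 passed it and 13 changed sign. For the 46 differences of other imprinted genes it was 859, 38, 9 and 4 of 910. After normexp correction the number of tested member probes past both limits was 0 at day 0 and 0 at day 2 for silencing, 2 and 1 for differentiation in siControl and siBach1 cells, and over all probes it was 339, 221, 3560, 3579 and, for the difference between the days, 204, where the fit as reported gave 828, 645, 5922, 6086 and 427. The cause was not tested. With only probes well above background on all 12 arrays the member counts were 1, 0, 2 and 2, since fewer probes were tested. Over all 8 tested probes, adjusted p alone gave 2 at day 2, 7 in siControl differentiation and 1 for the difference between the days. The shares of all tested probes were 12%, 53.4% and 4.59%. The methods' t-test gave 0 past both limits at day 2. Sign changes were those of H19 at day 2 (0.069 after quantile normalization), and after normexp correction those of Peg3 A_65_P05169 at day 0 (-0.033), Peg3 A_52_P235861 between the days (0.034), Plagl1 A_55_P1961965 at day 2 (-0.0090) and Cdkn1c at day 0 (0.036). Leaving out 1 array also turned Peg3 A_52_P235861 at day 0 (-0.020 to 0.21), at day 2 (-0.021 to 0.084) and between the days (-0.20 to 0.035), Zim1 A_55_P2917431 between the days (-0.42 to 0.13), Mest in siControl differentiation (-0.36 to 0.14), Plagl1 A_55_P1961965 at day 2 (-0.0030 to 0.27), and at day 0 Igf2 (-0.12 to 1.11) and Cdkn1c (-0.36 to 0.13). None of these had passed the test. With the replicate block, the paired fit, Peg3 A_52_P235861 in siBach1 differentiation passed (0.25, adjusted p = 0.027) and so did Igf2 at day 2 (-1.68, adjusted p = 0.013) and between the days (-2.21, adjusted p = 0.027); it changed no other call named here. Among other imprinted genes, the silencing calls of Osbpl5 and Copg2 at day 0 and of Cobl at day 2 were lost under 10, 6 and 7 alternatives. Dim probes set the limit: the lowest signal well above background lay between -5.17 and -3.86, and below it no change of Meg3, Rian, Mirg, Dlk1 or Grb10 could be measured.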
